A study of Mus musculus with 12 samples.

Results

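Cajal-Retzius neuron genes were followed in RNA-seq of the embryonic mouse pallium, the dorsal part of the telencephalon that forms the cortex. The genes are 8 listed symbols, Reln, Trp73, Calb2, Lhx1, Lhx5, Ebf2, Ebf3 and Nhlh2. They were listed by name, with earlier results of these data known, and all 8 were among the 54735 symbols in each library. The study compared 3 genotypes at E13.5, in mid-gestation, with 4 embryos each and 1 library per embryo, all on C57/Bl6. Controls were Rnu11 wt/flx, Trp53 wt/wt and Emx1-Cre+, so they carried the Cre transgene and 1 floxed Rnu11 allele. The Rnu11 conditional knockout (cKO) was Rnu11 flx/flx, Trp53 wt/wt and Emx1-Cre+. The double knockout (dKO) was Rnu11 flx/flx, Trp53 flx/flx and Emx1-Cre+. Rnu11 encodes U11, a small RNA needed to splice the few introns handled by the minor spliceosome, and Trp53 encodes the stress-response transcription factor p53. Emx1-Cre deletes floxed alleles in progenitors of the dorsal telencephalon, and which Cajal-Retzius neurons carry the deletion was not analysed here. RNA came from whole pallium, so more or fewer cells of a type and more or less RNA per cell cannot be told apart.

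Cajal-Retzius neurons are among the first neurons of the cortex. They are born mainly at the edges of the pallium, such as the cortical hem, the septum and the pallial-subpallial boundary, and spread under the meninges across the marginal zone. There they secrete Reelin, a large extracellular glycoprotein that binds the receptors Vldlr and ApoER2 (encoded by Lrp8) on migrating neurons and acts through the adaptor Dab1 in the layering of the cortex. Trp73 encodes p73, a relative of p53 that marks Cajal-Retzius neurons of the hem and septum. Calb2 encodes the calcium-binding protein calretinin, while Lhx1, Lhx5, Ebf2, Ebf3 and Nhlh2 encode transcription factors found in these neurons and also in other neurons. None of the 8 genes is restricted to Cajal-Retzius neurons.

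Promoter sequences are shown for Trp73, because p53 was removed in one of the genotypes and p73 is its relative, and for Reln, the secreted product of the cells. Trp73 lies at chr4:154056253-154140208 on the minus strand of GRCm38 (GENCODE M21), with 7 annotated transcripts, and has 2 RefSeq start entries that are 42702 bases apart. The internal start, inside the gene and outside its exons, gives rise to the shorter form of p73. The 250 bases upstream of it, 5′ to 3′, contain 1 match to the p53 consensus without a spacer, searched on both strands with up to 2 mismatches and shown in capitals. Reln lies at chr5:21884454-22344702 on the minus strand, and its upstream window has no such match.
Trp73, internal start, chr4:154097174-154097423, minus strand, RefSeq GRCm38.p6: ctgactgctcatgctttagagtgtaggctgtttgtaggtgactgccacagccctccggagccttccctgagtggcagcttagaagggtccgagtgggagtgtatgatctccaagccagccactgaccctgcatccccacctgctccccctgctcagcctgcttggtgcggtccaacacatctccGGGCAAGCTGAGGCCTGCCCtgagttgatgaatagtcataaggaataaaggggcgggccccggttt
Reln, chr5:22344706-22344955, minus strand, RefSeq GRCm38.p6: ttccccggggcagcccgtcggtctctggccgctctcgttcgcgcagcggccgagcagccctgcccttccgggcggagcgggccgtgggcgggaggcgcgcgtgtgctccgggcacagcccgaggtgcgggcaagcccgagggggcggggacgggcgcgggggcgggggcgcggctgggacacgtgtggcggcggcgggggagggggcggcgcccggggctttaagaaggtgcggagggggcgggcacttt
The match begins 66 bases before the internal Trp73 start and has 2 mismatches. Of 32851 RefSeq promoters searched over the same length, 217 hold such a match, or 0.661%. RefSeq promoter entries matched 5 of the 8 genes. The match describes letters only, no binding was measured, and the expression values are per gene and do not separate the Trp73 forms.

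The values were read as TPM, a transcript level scaled by gene length and by the total of each library. Protein-coding genes held 14.4% to 20.0% of the TPM in a library. Rnu11 was 640.5 ± 86.4 TPM in controls (SD, n = 4), 144 ± 20.4 TPM in cKO and 164 ± 26.3 TPM in dKO, and Trp53 was 3.82 ± 1.73, 4.24 ± 0.404 and 1.22 ± 0.252 TPM. Both targeted genes were thus low in the libraries labelled as lacking them. The median gene differed by 0.25 on the log2(TPM + 1) scale between cKO and control and by -0.26 between dKO and cKO, so the counts of members and of the larger lists are also given after protein-coding rescaling, which left medians of 0.12 and -0.08, and after median centring, which brings them to about 0. Pallial genes were present in every group, and of 5 listed 1 was called in cKO, Neurog2, which was lower and is described below. Of the 11764 genes averaging at least 1 TPM, 128 were called lower in cKO. After median centring 2 of the 5 were called lower in cKO and 1 in dKO against control, beside 348 and 552 of those genes. Emx1 was at 8.84 ± 1.94 TPM in controls, 7.24 ± 1.07 in cKO and 6.05 ± 1.13 in dKO.

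In cKO pallium, 7 of the 8 Cajal-Retzius genes rose against controls and the lowest cKO embryo lay above the highest control for all 8. The mean TPM of Reln was 2.41 times the control mean, that of Lhx5, Ebf3 and Lhx1 2.19, 2.11 and 2.10 times, that of Ebf2 1.97 times, and that of Nhlh2, Calb2 and Trp73 1.71, 1.70 and 1.68 times. Of all 11764 genes averaging at least 1 TPM, 34.3% passed the same test in the same direction (limma, Benjamini-Hochberg adjusted p under 0.05), and 32.7% had no overlap in that direction. Of 39624 genes tested with no filter, which is where Lhx1, Lhx5 and Ebf2 were tested, 11% were called higher and 17.4% did not overlap in that direction. The median log2 difference of the 8 genes was 0.50, beside the 0.25 over all genes averaging at least 1 TPM. For the 5 members with that mean it was 0.61. The share called was therefore high for the set, in a comparison in which many genes were called higher. Because the set was chosen with earlier results of these data known, this share is a description only.

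Reln, which encodes the secreted signal of these cells, was the most abundant of the 8. It stood at 10.9, 19.0, 13.4 and 14.9 TPM in control embryos 1 to 4, at 36.2, 35.4, 37.9 and 30.9 TPM in cKO, and at 14.1, 21.3, 19.6 and 12.9 TPM in dKO. The cKO embryos lay above all 8 others, and dKO embryos overlapped controls. Reln rose by 1.23 on the log2(TPM + 1) scale in cKO (SE 0.174, adjusted p = 0.000673). It differed by 0.21 between dKO and control (adjusted p = 0.574), and between dKO and cKO it fell by 1.03 (adjusted p = 0.00149).

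Nhlh2 encodes a basic helix-loop-helix factor of young neurons. Its level was 2.85, 2.92, 2.97 and 2.93 TPM in controls, 4.49, 5.12, 5.25 and 5.05 TPM in cKO, and 2.77, 3.43, 3.97 and 3.52 TPM in dKO. The controls were closely grouped, cKO was above both other groups without overlap, and dKO embryo 1 lay below the controls while the other three lay above them. Nhlh2 rose by 0.61 in cKO (SE 0.0850, adjusted p = 0.000617) and was lower in dKO than in cKO, with a log2 difference of -0.44 (adjusted p = 0.00287).

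Ebf3 and Ebf2 encode Early B-cell factors, transcription factors of early neurons. Ebf3 was at 1.45, 0.924, 0.919 and 0.993 TPM in controls, 2.18, 2.29, 2.18 and 2.39 TPM in cKO, and 1.18, 1.77, 1.69 and 1.24 TPM in dKO. Ebf2 was at 0.531, 0.338, 0.388 and 0.547 TPM in controls, 0.684, 0.905, 0.912 and 1.04 TPM in cKO, and 1.00, 0.751, 0.909 and 0.887 TPM in dKO. The paralogs differed in dKO, where Ebf3 lay between control and cKO and overlapped controls, while Ebf2 lay above the controls without overlap and spanned much of the cKO range. In cKO Ebf3 rose by 0.66 (SE 0.108, adjusted p = 0.00161) and Ebf2 by 0.38 (SE 0.0820, adjusted p = 0.0150). Against cKO, Ebf3 in dKO was lower by a log2 difference of -0.41 (adjusted p = 0.0122), and Ebf2 differed by 0.003 (95% interval -0.18 to 0.18, adjusted p = 1).

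Lhx1 and Lhx5 encode LIM-homeodomain factors, and both were the lowest of the 8, under 1 TPM in every embryo. Lhx1 was at 0.284, 0.217, 0.259 and 0.275 TPM in controls, 0.490, 0.710, 0.458 and 0.514 TPM in cKO, and 0.290, 0.304, 0.498 and 0.314 TPM in dKO. Lhx5 was at 0.228, 0.192, 0.138 and 0.212 TPM in controls, 0.371, 0.478, 0.392 and 0.446 TPM in cKO, and 0.257, 0.354, 0.339 and 0.340 TPM in dKO. All dKO values exceeded all control values for both genes, and for Lhx5 all dKO values were also below all cKO values. In cKO Lhx1 rose by 0.29 (SE 0.0732, adjusted p = 0.0273) and Lhx5 by 0.25 (SE 0.0541, adjusted p = 0.0141), differences that the added 1 TPM makes small at these levels. Lhx1 was no longer called without cKO embryo 2 or without control embryo 2, 3 or 4 (adjusted p 0.0568 to 0.0672). The gene Gm27199 overlaps Lhx5 on the other strand and was at 0 to 0.467 TPM in controls, 0.594 to 1.12 TPM in cKO and 0.550 to 0.681 TPM in dKO. Whether the counting kept strands apart is not given in the sources used here, so reads of these overlapping genes may not be separated. Other annotated genes also overlap Reln, Trp73, Ebf2 and Ebf3, some of those in Reln on its own strand, and the same limit applies. The highest, Gm16111 in Reln, was at 1.10 to 1.81 TPM in controls, 1.74 to 4.33 TPM in cKO and 0.219 to 0.758 TPM in dKO. Trp73os, which overlaps Trp73, was at most 0.123 TPM.

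Trp73 was at 1.64, 0.978, 0.674 and 1.06 TPM in controls, 1.99, 1.75, 1.78 and 1.77 TPM in cKO, and 1.02, 1.92, 1.82 and 0.736 TPM in dKO. The cKO embryos were tightly grouped, control embryo 1 came close to them, and the dKO embryos spread over much of both other ranges. It was the only one of the 8 not called in cKO, with a log2 difference of 0.45 (SE 0.173, adjusted p = 0.0580). Without control embryo 1 the difference was 0.57 (adjusted p = 0.0262), and Trp73 was also called without dKO embryo 2 or 4. The fit of controls and cKO alone called all 5 members averaging at least 1 TPM, Trp73 included. So did the fit without dKO embryos 2 and 4, chosen after seeing the data. Trp73 was not called after rescaling, after median centring, on neuron genes or with a replicate block. Between dKO and control Trp73 differed by 0.17 (95% interval -0.20 to 0.55, adjusted p = 0.649), and between dKO and cKO by -0.28 (-0.66 to 0.09, adjusted p = 0.202). Of its relatives, Trp53 did not pass the test in cKO (0.18, adjusted p = 0.439), and Trp63 averaged under 0.03 TPM in each group.

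Calb2 had another order of genotypes. It stood at 2.31, 1.98, 1.96 and 1.58 TPM in controls, 3.51, 3.47, 3.01 and 3.32 TPM in cKO, and 3.10, 5.11, 3.10 and 5.63 TPM in dKO. Every mutant embryo was above every control, and dKO embryos 2 and 4 were above every cKO embryo while dKO embryos 1 and 3 lay within the cKO range. Calb2 rose by 0.55 in cKO (SE 0.152, adjusted p = 0.0168) and by 0.79 in dKO (SE 0.152, adjusted p = 0.0106), and dKO differed from cKO by 0.24 (95% interval -0.09 to 0.57, adjusted p = 0.212). Without dKO embryos 2 and 4, a choice made after their values were seen, Calb2 differed from control by 0.48 in dKO (adjusted p = 0.0565) and from cKO by -0.08 (adjusted p = 0.622).

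**Figure D1:**
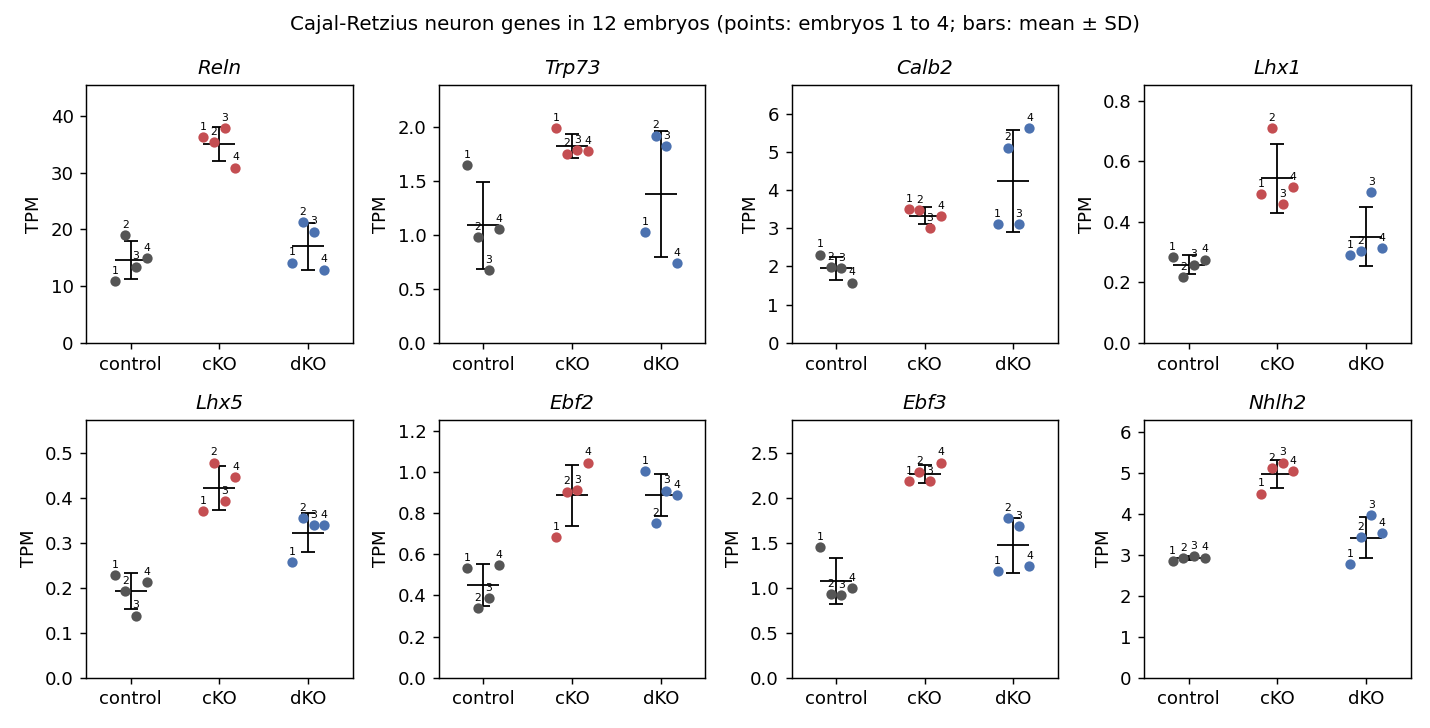
TPM of the 8 Cajal-Retzius genes in each embryo, 1 panel per gene with its own axis from 0; points are embryos of control, cKO and dKO, and bars give the mean and SD (n = 4). The cKO points lie above all control points in every panel, and for Calb2 dKO embryos 2 and 4, at 5.11 and 5.63 TPM, are the highest.

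Against controls, dKO pallium had 2 of the 8 genes called, Calb2 and Ebf2, both higher. Of all genes averaging at least 1 TPM, 1.79% were called higher in this comparison, and 0.681% with no filter. Calb2, Ebf2, Lhx1 and Lhx5 did not overlap between the groups, beside 5.14% of genes averaging at least 1 TPM and 3.69% with no filter that did so in that direction. The 8 log2 differences ranged from 0.10 to 0.79, with a median of 0.19, beside -0.01 over all genes averaging at least 1 TPM. For the 5 members with that mean the median was 0.21. Ebf2 was near the threshold at 0.38 (SE 0.0820, adjusted p = 0.0493). It was no longer called in 10 of 12 fits that each left out 1 embryo (adjusted p 0.0585 to 0.135), the exceptions being those without cKO embryo 1 or 4.

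Between dKO and cKO, Reln, Ebf3 and Nhlh2 fell, and those 3 and Lhx5 had no overlap. Of all genes averaging at least 1 TPM, 38.8% were called lower in that comparison and 32.8% did not overlap in that direction (14.5% and 17.2% with no filter). The 3 genes called were all among the 5 members averaging at least 1 TPM. Those 5 had a median log2 difference of -0.41, beside -0.26 over all such genes. None of the 3 members tested with no filter was called lower. Over all 8 genes the median was -0.24, which pools genes of both fits. So few genes leave the share of members called imprecise. Since cKO embryos enter both this comparison and the one with controls, the 2 sets of differences are given only side by side.

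The scaling of the libraries changed how many of the 8 were called. After TPM were rescaled to the protein-coding total, 4 genes were called higher in cKO (Reln, Ebf2, Ebf3 and Nhlh2), beside 11.3% of genes averaging at least 1 TPM and 3.41% with no filter. After each library was centred on the median gene, Reln (0.98, adjusted p = 0.0094), Ebf3 (0.41, adjusted p = 0.0206) and Nhlh2 (0.36, adjusted p = 0.0274) were called, beside 3.72% of genes with that mean and 2.13% with no filter. Centring on general neuron genes, added after the data were seen, left Reln alone (0.67, adjusted p = 0.0383), beside 0.51% of genes averaging at least 1 TPM, while Trp73 and Calb2 turned to -0.11 and -0.01. With no filter on low genes, none of the 8 was called on neuron genes, Reln included. In dKO against control, Calb2 was called higher under each of these scalings, beside 5.44%, 3.74% and 0.765% of genes averaging at least 1 TPM. Ebf2 was called there after rescaling (adjusted p = 0.0160) and after median centring (adjusted p = 0.0197), beside 1.33% and 1.13% of genes with no filter, and not on neuron genes (adjusted p = 0.103). In dKO against cKO, Reln was called lower under the first 2 (-0.81, adjusted p = 0.0315, and -0.76, adjusted p = 0.0397), beside 8.28% and 3.83% of genes averaging at least 1 TPM, and in neither with no filter. On neuron genes Reln was not called (-0.39, adjusted p = 0.0852) and Calb2 was called higher (0.88, adjusted p = 0.00403), as were 33.6% of those genes.

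**Figure D2:**
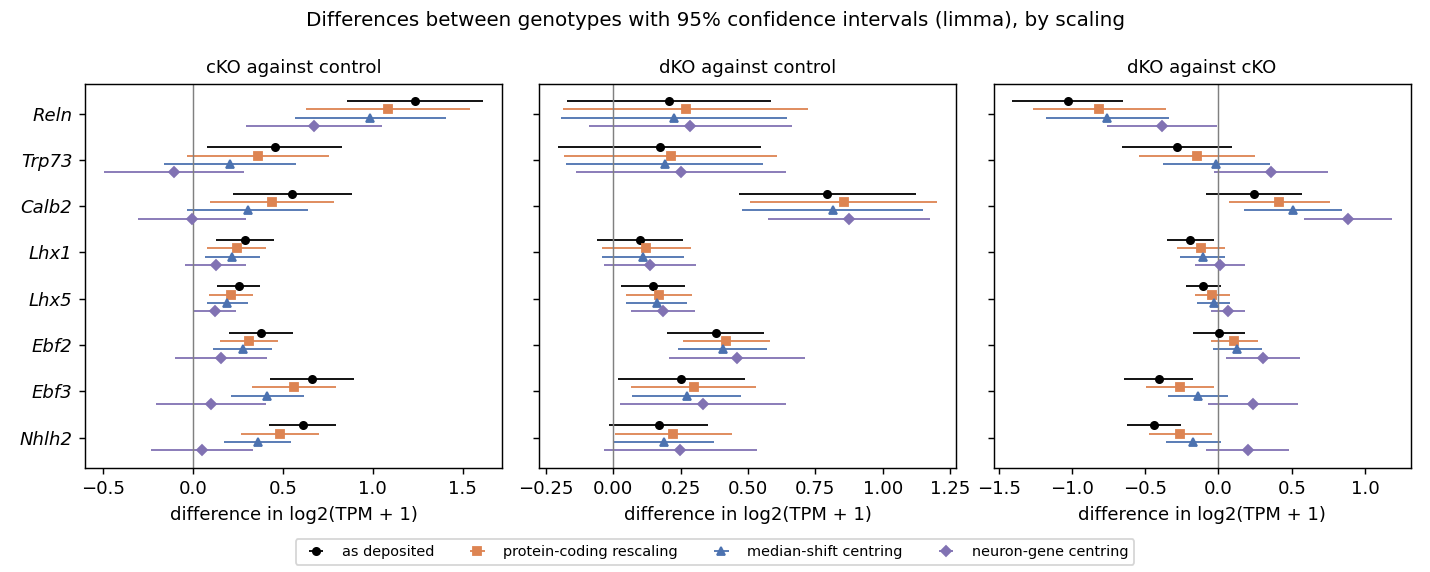
Differences in log2(TPM + 1) of the 8 genes in the 3 comparisons, 1 panel each, with markers for the values as deposited and after each scaling and lines for 95% intervals (limma); the vertical line marks no difference. Reln lies to the right in cKO against control under every scaling, from 1.23 as deposited to 0.67 on neuron genes.

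General neuron genes were also higher in cKO. The list of 12 neuron genes summed to 181 to 188 TPM in controls, 260 to 311 TPM in cKO and 136 to 205 TPM in dKO. Of its 11 tested genes, 8 rose in cKO, beside 34.3% of genes averaging at least 1 TPM, and none fell. The median log2 difference of the list was 0.58, beside 0.25 over all such genes. The largest rises in the list were in Gap43, which encodes a growth-cone protein (1.01), Stmn2, a microtubule regulator (0.76), and Myt1l, a neuronal transcription factor (0.69). In dKO against cKO 10 of 11 fell, with Snap25, a synaptic fusion protein, and Gap43 both at -0.95 and Myt1l at -0.92, and in dKO against control none was called. After rescaling to the protein-coding total 2 of the 11 were called higher in cKO and 4 lower in dKO against cKO, and after median centring 1 and 3. Of genes averaging at least 1 TPM, 38.8% were called lower in dKO against cKO as deposited. After rescaling 11.3% were called higher in cKO and 8.28% lower in dKO against cKO, and after centring 3.72% and 3.83%.

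Per 100 TPM of general neuron genes, Reln was 7.94 ± 1.88 TPM in controls (SD, n = 4), 12.6 ± 1.53 in cKO and 9.66 ± 1.78 in dKO. The cKO embryos lay above both other groups without overlap, and 2.29% of genes averaging at least 1 TPM did so against controls. Of such genes, 1.52% lay below cKO in dKO, as Reln did. Lhx1 and Lhx5 also lay above controls on this scale, beside 2.84% of genes with no filter. Calb2 was 1.07 ± 0.169 in controls, 1.19 ± 0.0664 in cKO and 2.38 ± 0.553 in dKO, with dKO above both others without overlap, as 20.8% of genes averaging at least 1 TPM were against cKO. Lhx5, Ebf2 and Nhlh2 were above controls in dKO as well, beside 5.27% of genes averaging at least 1 TPM and 4.01% with no filter. Trp73 overlapped between all pairs of groups, at 0.591 ± 0.217, 0.654 ± 0.0662 and 0.774 ± 0.272.

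Relative to Reln, no other member differed without overlap between cKO and control, whereas 59.5% of genes averaging at least 1 TPM were lower by that measure. Calb2 per Reln was 0.142 ± 0.0501 in controls (SD, n = 4), 0.0954 ± 0.0116 in cKO and 0.263 ± 0.120 in dKO. Calb2, Lhx5, Ebf2 and Ebf3 were higher relative to Reln in dKO than in cKO without overlap, as were 45.9% of genes averaging at least 1 TPM and 17.9% with no filter. In dKO against control none of the 7 ratios separated.

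**Figure D3:**
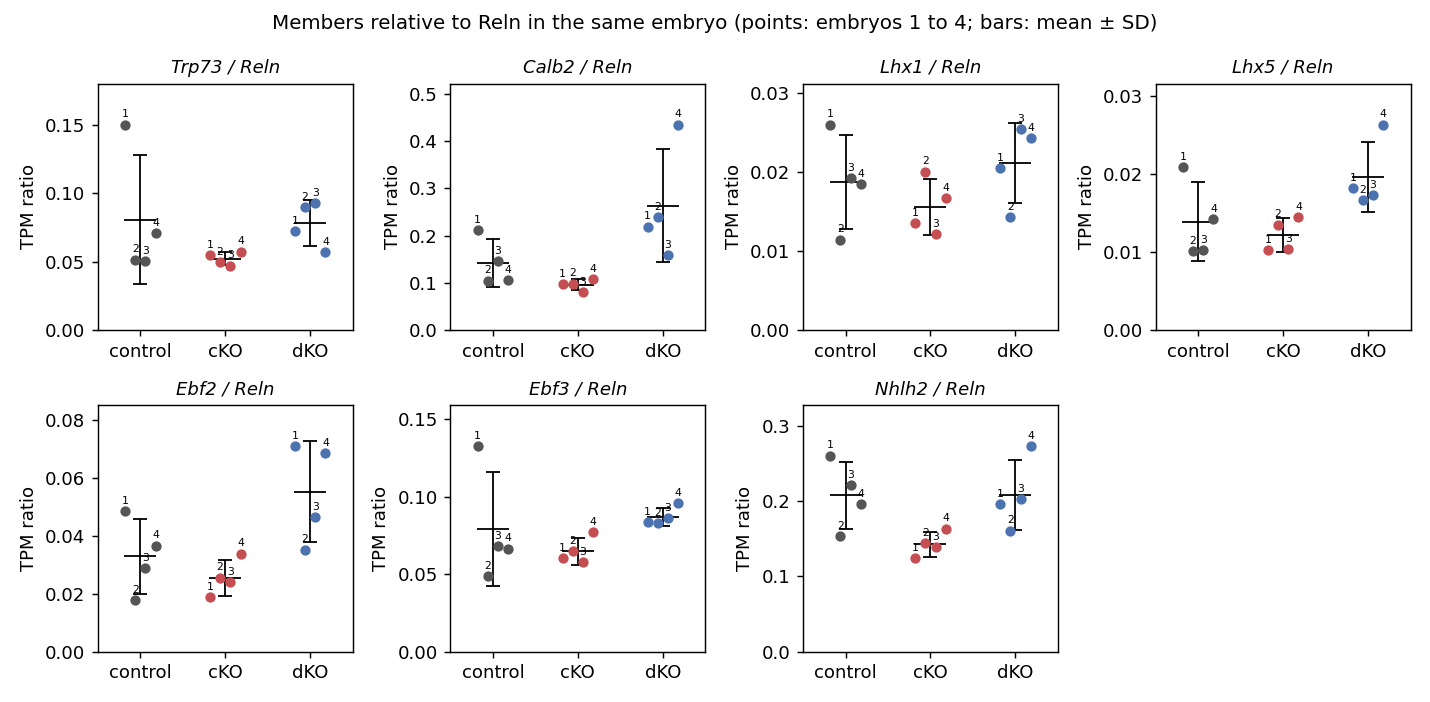
TPM of the other 7 genes divided by the TPM of Reln in each embryo, 1 panel per gene with an axis from 0; points are embryos and bars give the mean and SD (n = 4). Control and cKO points overlap in every panel, and the dKO points of Calb2 lie above those of cKO.

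Levels per length fell in nearly the same order in each genotype. In controls Reln came first, then Nhlh2 and Calb2, then Trp73 and Ebf3 at 1.09 and 1.07 TPM, then Ebf2, Lhx1 and Lhx5. Calb2 and Trp73, Trp73 and Ebf3, and Lhx1 and Lhx5 overlapped as neighbours there. In cKO only Ebf2 and Lhx1 and Lhx1 and Lhx5 overlapped, and Ebf3 ranked above Trp73. In dKO Calb2 came second at 4.24 ± 1.33 TPM, overlapping Nhlh2 at 3.42 ± 0.496 TPM.

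Among embryos of a genotype, Trp73 and Ebf3 deviated together from the group means (r = 0.93 over 12 embryos, which share group means and library scaling). Reln and Nhlh2 had r = 0.56, Reln and Trp73 0.43, and Calb2 had -0.08 to 0.17 with the others. Over 10065 protein-coding genes averaging at least 1 TPM, the 8 non-members most like the mean deviation of the tested members were Pde9a, Aff2, Nrd1, Vma21, Smarca2, Zfp827, Mcee and Mbnl2, with r from 0.93 to 0.91. The members themselves ranked from 116 (Ebf3) to 2552 (Calb2) by this measure. The 8 named genes are the highest of 10065 r values over 12 embryos. How high such values run by chance was not tested, so the ranks are a description only.

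Other genes known from Cajal-Retzius neurons were mostly higher in cKO. Of 16 listed, 9 were tested, and 6 rose in cKO, beside 34.3% of genes averaging at least 1 TPM. The median log2 difference was 0.56, beside 0.25 over all such genes. Cacna2d2 was not called (0.29, limma adjusted p = 0.0961), and cKO embryos overlapped controls for Nr2f1 and Nhlh1. Among genes averaging less, Ebf1 and Barhl2 were called higher with no filter (limma adjusted p = 0.0199 and 0.0133), as were 11% of genes. Ndnf was 0.253 ± 0.115 TPM in controls, 0.246 ± 0.0754 in cKO and 0.224 ± 0.0796 in dKO. Nr2f2, which encodes the nuclear receptor COUP-TFII, was 4.66 ± 1.38 TPM in controls, 9.52 ± 1.09 in cKO and 6.12 ± 1.90 in dKO, a rise of 0.92 in cKO (adjusted p = 0.0055). Cntnap2, which encodes a neuronal cell adhesion protein, rose by 0.81 (adjusted p = 0.000166) and Rcan2, a calcineurin regulator, by 0.74 (adjusted p = 0.00121). After rescaling 5 of the 9 were called higher and after centring 4, Nr2f2, Cntnap2 and Rcan2 among them both times. Of genes averaging at least 1 TPM, 11.3% and 3.72% were called higher after these scalings. In dKO none of the 9 was called against control and 5 fell against cKO, led by Nr2f2 (-0.59), Cntnap2 (-0.54) and Nr2f1 (-0.47). Of genes averaging at least 1 TPM, 38.8% were called lower in dKO against cKO. After rescaling and after centring 0 were lower in dKO than in cKO, beside 8.28% and 3.83% of genes averaging at least 1 TPM. In dKO against control 2 and 1 were called higher after these scalings, beside 5.44% and 3.74% of such genes.

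Of the Reelin pathway, 19 of 20 listed genes were tested, and 10 rose in cKO, beside 34.3% of genes averaging at least 1 TPM. The median of the list was 0.34, beside 0.25 over all such genes. The receptor gene Vldlr was 1.07 ± 0.106 TPM in controls, 1.84 ± 0.236 in cKO and 1.11 ± 0.259 in dKO, and rose by 0.45 in cKO (adjusted p = 0.00844). Dcx, which encodes a microtubule protein of migrating neurons and is also on the neuron list, rose by 0.60 (adjusted p = 0.0189), Pik3r1, a PI3-kinase subunit, by 0.46 (adjusted p = 0.00366), and the adaptor Dab1 by 0.39 (adjusted p = 0.0284). Lrp8, the gene of the other receptor, was 3.85 ± 0.667, 4.72 ± 0.300 and 2.83 ± 0.500 TPM and fell in dKO against cKO (-0.59, adjusted p = 0.00263). In that comparison 13 of 19 fell, with Dcx at -0.72 and Pik3r1 at -0.67, and none was called in dKO against control. After rescaling 2 of the 19 were called higher in cKO and 3 lower in dKO against cKO, and after centring 0 and 1. Of genes averaging at least 1 TPM, 38.8% were called lower in dKO against cKO as deposited. After rescaling 11.3% were called higher in cKO and 8.28% lower in dKO against cKO, and after centring 3.72% and 3.83%.

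Genes of the places where Cajal-Retzius neurons are born were mostly higher in cKO as well. Of 20 listed, 12 were tested and 9 rose in cKO, beside 34.3% of genes averaging at least 1 TPM. The median of the list was 0.65, beside 0.25 over all such genes. Rspo2 and Rspo3, which encode secreted Wnt enhancers, rose by 1.14 (adjusted p = 0.000266) and 1.01 (adjusted p = 0.00187), and the cortical hem ligand gene Wnt3a by 0.74 (adjusted p = 0.00442). Rspo2 was 4.95 ± 0.969 TPM in controls, 12 ± 1.06 in cKO and 6.66 ± 1.41 in dKO. After rescaling 5 were called higher and after centring 2, Rspo2 and Rspo3, beside 11.3% and 3.72% of genes averaging at least 1 TPM. In dKO, Bmp4, which encodes a dorsal midline signal, rose against control (0.87, adjusted p = 0.00232). Against cKO 5 fell, led by Rspo2 (-0.78), Rspo3 (-0.75) and Rspo1 (-0.70), while Fgf17, an anterior midline signal, rose (1.10, adjusted p = 0.0248). After rescaling and after centring 1 gene was lower and 1 higher in that comparison. Of genes averaging at least 1 TPM, 38.8% were called lower there as deposited, 8.28% after rescaling and 3.83% after centring. The list summed to 24.4 to 41.3 TPM in controls, 55.3 to 68.2 in cKO and 31.9 to 58.8 in dKO, and whether dissection of the pallial edge contributed was not tested.

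Regulators of the choice between Cajal-Retzius and other cortical fates had few calls. Of 17 tested, 3 rose in cKO, beside 34.3% of genes averaging at least 1 TPM, and 1 fell. The median of the list was -0.06, beside 0.25 over all such genes. The risers were Otx2 (0.97, adjusted p = 0.0165), a homeobox gene of the dorsal midline, and the zinc-finger genes Zic1 (0.65) and Zic2 (0.58), and the gene that fell was Neurog2, a proneural factor (-0.49, adjusted p = 0.0189). After rescaling 0 were called higher and 1 lower, and after centring 0 and 4, with Otx2 at 0.83 and 0.72. Of the 11764 genes averaging at least 1 TPM, 128 were called lower in cKO as deposited, 205 after rescaling and 348 after centring. Called higher after these scalings were 11.3% and 3.72%. In dKO Eomes, a gene of intermediate progenitors, fell against control (-0.57, adjusted p = 0.0181) and against cKO (-0.40).

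**Figure D4:**
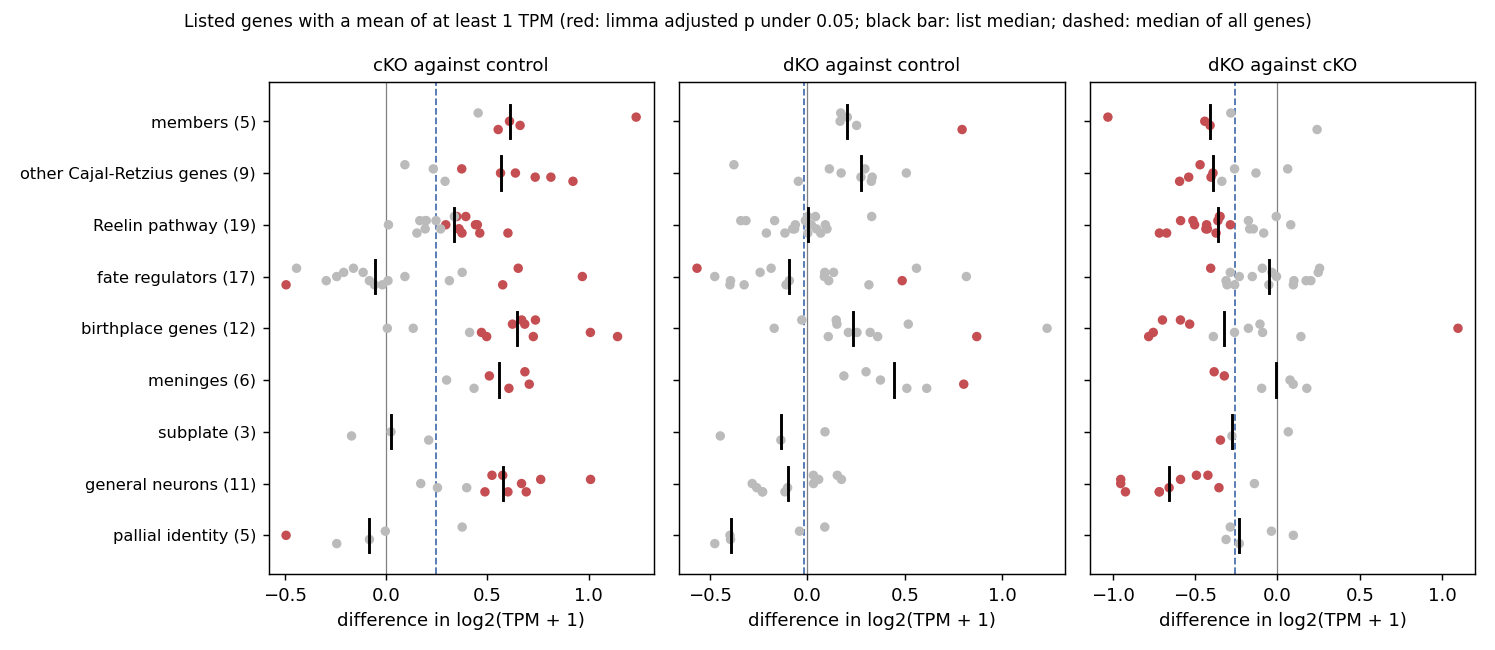
Difference in log2(TPM + 1) of each tested gene by list in the 3 comparisons; points are genes, red where limma's adjusted p was under 0.05, black bars are list medians, the dashed line is the median of all genes, and the members shown are the 5 that averaged at least 1 TPM. The neuron, birthplace and other Cajal-Retzius lists have medians of 0.58, 0.65 and 0.56 in cKO against control, and the fate regulators -0.06.

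Markers of neighbouring cells were measured in the same libraries. Of 6 tested meningeal genes, 4 rose in cKO, led by the collagen gene Col3a1 (0.71) and the proteoglycan genes Dcn (0.69) and Lum (0.61). After rescaling 3 were called and after centring 1. Of genes averaging at least 1 TPM, 34.3% were called higher in cKO as deposited, 11.3% after rescaling and 3.72% after centring. Col3a1 also rose in dKO against control (0.80, adjusted p = 0.0409). The list summed to 26.9 to 46.4 TPM in controls, 48.2 to 58.4 in cKO and 42.7 to 59.4 in dKO. Cxcl12, the meningeal chemokine that guides Cajal-Retzius neurons, was 2.43 ± 0.780, 3.16 ± 0.420 and 3.40 ± 0.522 TPM (0.30 in cKO, adjusted p = 0.112), and its receptor gene Cxcr4 rose in cKO (0.56, adjusted p = 0.0028). Ventral telencephalon genes, 10 in the list, summed to 1.79 to 2.54 TPM in controls, 3.72 to 5.33 in cKO and 1.72 to 3.97 in dKO, with Nkx2-1 and Gsx2 near 0, and Dlx1, the 1 gene tested, was called higher in cKO (0.58, adjusted p = 0.0244) and lower in dKO against cKO (-0.53, adjusted p = 0.0307). It was called in neither after rescaling (0.48 and -0.40) or centring (0.34 and -0.26). The ventral sum was 3.97 and 3.84 TPM in dKO embryos 2 and 4, which also had the highest Calb2, and 1.72 and 2.17 in the others. In cKO embryos the ventral sum was 3.72 to 5.33 TPM with Calb2 at 3.01 to 3.51 TPM. A link between the ventral sum and Calb2 was not tested. Diencephalon genes summed to 5.94 to 7.09, 6.69 to 9.62 and 5.62 to 7.09 TPM, mostly Lhx9. Of 3 tested subplate genes, which mark the other early-born cortical neurons, none was called in cKO. The part of these cells in the results was not tested.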

How the data were processed

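Total RNA from 12 pallia was made into stranded libraries, per the labels' protocols. The submitters' processing notes name HISAT2 and mm10; the counting tool, annotation and treatment of strand and shared reads are not given in the sources used here. The deposited tables hold 1 value per symbol and sum to 1000000 in each library, and were read as TPM from those values. TPM keep no read depth, so no counting interval or detection limit is given. No 2 of the 66 library pairs were identical (r 0.976 to 0.988). The labels state no litters, so p-values measure the spread between these embryos.

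Levels were compared with limma 3.58.1 in R 4.3.3 on log2(TPM + 1), with all 3 groups in one fit, a trended prior, a mean of at least 1 TPM (11764 genes) and Benjamini-Hochberg adjustment over all genes tested. This scale understates changes of low genes. Reln, Trp73, Calb2, Ebf3 and Nhlh2 passed the filter; Lhx1, Lhx5 and Ebf2 did not, and their values come from the fit without it (39624 genes above 0). All 8 members are named, and from each other list the called genes with the largest difference, at most 3 per direction, plus receptors, guidance and targeted genes. The genes most alike were ranked by Pearson r of deviations from group means after median centring. Members and lists were chosen with earlier results of these data known. Motifs were searched in 250 bases of RefSeq promoters. Alternatives were another pseudocount (0.1), other filters (5 TPM, 0.1 TPM or none), 3 scalings, fits of 2 groups, a replicate block, and leaving out each embryo.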

Additional observations from a re-analysis of the deposited data

Results flagged for a closer look

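Within groups of 4 embryos, the highest and the lowest embryo were checked by Dixon's ratio, the gap to the nearest other embryo as a share of the whole spread, against its 95% critical value. Of the 24 groups (8 genes in 3 genotypes), 4 exceeded it, where about 1.2 are expected by chance. Trp73 was high in cKO embryo 1 (0.866) and Ebf3 was high in control embryo 1 (0.859). Lhx1 was high in dKO embryo 3 (0.884), and Lhx5 was low in dKO embryo 1 (0.849). Meningeal genes summed to 46.4 TPM in control embryo 1, against 26.9 to 30.3 TPM in the other controls. The pallial list summed to 59.7 TPM there, against 39.5 to 44.2 TPM, and the birthplace list to 41.3 TPM, against 24.4 to 33.0 TPM. The neuron list did not stand out, at 185 TPM against 181 to 188 TPM. The part of any of these in the Ebf3 value of that embryo was not tested.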

How the results depend on the processing

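In cKO against control, 7 members were called, and Reln, among genes averaging at least 1 TPM, under every alternative run. On neuron genes with no filter, 0 members were called. Other choices gave 3 members and 786 genes (median centring), 4 and 1539 (protein-coding rescaling), 1 and 842 (neuron genes, 60 higher and 782 lower) and 1900 of 5803 genes (at least 5 TPM), against 4163 of 11764 (4035 higher and 128 lower). For dKO against control, 610 of 11764 genes were called. Median centring gave 992, rescaling 1080 and neuron genes 133 of as many. The filter of at least 5 TPM gave 294 of 5803 genes. A pseudocount of 0.1 with at least 0.1 TPM gave 1232 of 20128. Members called in dKO against control were 1 with the 2 groups alone and 1 on neuron genes. For dKO against cKO, 4636 of 11764 genes were called. Centring gave 698 and rescaling 1139 of as many, each with 1 member lower (Reln), and at least 5 TPM gave 2220 of 5803. On neuron genes 1 member was higher there (Calb2), as were 3954 of the 4037 genes called, against 72 higher as deposited. With dKO embryos 2 and 4 left out, chosen after seeing the data, dKO against control had 217 genes and 0 members (limma, Calb2 at adjusted p = 0.0565), and dKO against cKO 2724 genes. Leaving out each embryo gave 2468 to 4353 genes and 6 to 8 members in cKO against control, 333 to 705 and 1 to 2 in dKO against control, and 3082 to 4851 and 3 to 4 in dKO against cKO. The gene count moved by over 1.5 times without cKO embryo 2 (2468), cKO embryo 4 (2526) or control embryo 2 (2675) in cKO against control, without control embryo 3 (354) or 4 (333) in dKO against control, and without cKO embryo 2 (3082) or 4 (3089) in dKO against cKO.

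On neuron genes, differences turned to -0.11 (Trp73) and -0.0072 (Calb2) in cKO against control, and to 0.36 (Trp73), 0.0089 (Lhx1), 0.064 (Lhx5), 0.23 (Ebf3) and 0.20 (Nhlh2) in dKO against cKO; genes of the other lists were not run there. Ebf2 in dKO against cKO, near 0, was -0.051, -0.026 and -0.0034 without cKO embryo 1, dKO embryo 1 and dKO embryo 3, and up to 0.043 without others, and Calb2 was -0.075 without dKO embryos 2 and 4. Lhx1 in dKO against cKO was called without dKO embryo 3 (-0.24, adjusted p = 0.0370). The cause of these changes was not tested. Embryo numbers are shared by the genotypes, but deviations of same-numbered embryos correlated at -0.10 to 0.07. With the replicate block 2979, 409 and 3608 genes and 6, 1 and 3 members were called, Lhx1 in cKO (adjusted p = 0.0755) and Ebf2 in dKO (adjusted p = 0.123) no longer among them. Low levels limit Lhx1, Lhx5 and Ebf2, and no read depth is known.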
